A study of Mus musculus with 50 samples.

Results

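The genes described are 10 core circadian clock genes among the 19494 genes tested on arrays of mouse colon RNA. They were chosen by name, with earlier results of these data known. The positive arm holds Arntl, Npas2 and Clock. The other 7 genes are the period genes Per2 and Per3, the nuclear receptors Nr1d1 and Nr1d2, the repressor Ciart, and the output factors Dbp and Tef. Each was read by 1 probe set. In the mammalian clock, ARNTL (also called BMAL1) pairs with CLOCK or its relative NPAS2, binds DNA at E-box sequences and switches on the genes of its own repressors. The PER proteins and CIART then hold that pair back, and the nuclear receptors NR1D1 and NR1D2 (REV-ERB alpha and beta) repress Arntl and Npas2 at sites called ROREs. DBP and TEF are transcription factors driven by the same loop that act on D-box sequences. Levels of most of these RNAs rise and fall over each day in most tissues, the gut included. Arntl and Npas2 peak at a time of day when most of the other members are low. Meal times and light set the phase of this rhythm.

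RNA of colon tissue from 50 mice aged 10 to 12 weeks was measured on 1 array per mouse, in 8 genotypes and 10 groups of 5. The mice lived under a 12 h light cycle on regular chow. No source used here gives the time of day at which the colon was taken. Array titles carried numbers 1 to 30 or 86 to 124, and these series may be batches, which the labels do not say. The series 1 to 30 held the floxed control Fadd fl/fl, the epithelial knockouts FADD IEC-KO and CASP8 IEC-KO, and 3 co-deletions, which were CASP8 IEC-KO Mlkl -/-, FADD IEC-KO Mlkl -/- and FADD IEC-KO Zbp1 -/-. The series 86 to 124 held the floxed control Casp8 fl/fl, FADD IEC-KO, CASP8 IEC-KO and FADD IEC-KO RIPK3 IEC-KO. IEC-KO stands for loss in intestinal epithelial cells, and the driver of that loss is not named in the labels, while Zbp1 -/- and Mlkl -/- mark loss in the whole body. The floxed line of a comparison could differ from the deleted gene: CASP8 IEC-KO of the series 1 to 30 was set against Fadd fl/fl, and FADD IEC-KO of the series 86 to 124 against Casp8 fl/fl. FADD is the adaptor that recruits caspase-8 to death receptors, caspase-8 restrains necroptosis, and RIPK3, MLKL and ZBP1 take part in necroptosis. Arrays are named below by genotype and title number.

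Every array had a similar overall level, with array medians of log2 signal from 6.41 to 6.47. The targeted genes followed the labels: Fadd had group means of 6.14 to 6.39 in the 5 FADD IEC-KO genotype groups and 7.30 to 7.61 in the other 5, and Casp8 had 8.98 to 9.14 in the 3 CASP8 IEC-KO genotype groups and 10.20 to 10.80 in the other 7. Mlkl was lowest in the Mlkl -/- groups, at 7.17 and 7.31 against 8.14 to 9.18. Zbp1 in Zbp1 -/- mice (5.49 ± 0.50, SD, n = 5) and Ripk3 in the RIPK3 IEC-KO mice (6.68 ± 0.13) lay below FADD IEC-KO but near the floxed controls (5.68 ± 0.19 and 6.60 ± 0.19). Epithelium markers had group means of 10.90 to 11.14 in all 10 groups. The RNA is from whole tissue, in which fewer cells of a type and less RNA per cell cannot be told apart. Log2 signals of different probe sets are not on a common scale, so levels are compared between mice, not between genes.

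Promoter sequences are shown for the 5 members whose windows held a motif through which the loop is known to run. Windows of 300 bases, from 250 before to 50 after a transcript start, came from RefSeq (GRCm38.p6), which held 13 windows for 9 of the 10 members. Capitals mark the motif, searched on both strands. The motifs were the E-box CACGTG, the variant E-box CACGTT, the D-box TTATGTAA or TTACGTAA, and the RORE core TAGGTCA or TGGGTCA. No printed match overlaps another. The start is base +1 and sequences read 5′ to 3′ on the strand of the gene.
Arntl, chr7:113207261-113207560, plus strand, RORE core: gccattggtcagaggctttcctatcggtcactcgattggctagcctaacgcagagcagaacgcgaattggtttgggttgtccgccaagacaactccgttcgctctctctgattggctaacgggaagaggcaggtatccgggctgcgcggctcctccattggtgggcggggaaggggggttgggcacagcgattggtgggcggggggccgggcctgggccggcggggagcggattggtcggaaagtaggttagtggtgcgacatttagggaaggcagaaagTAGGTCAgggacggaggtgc
Ciart, chr3:95882179-95882478, minus strand, E-box: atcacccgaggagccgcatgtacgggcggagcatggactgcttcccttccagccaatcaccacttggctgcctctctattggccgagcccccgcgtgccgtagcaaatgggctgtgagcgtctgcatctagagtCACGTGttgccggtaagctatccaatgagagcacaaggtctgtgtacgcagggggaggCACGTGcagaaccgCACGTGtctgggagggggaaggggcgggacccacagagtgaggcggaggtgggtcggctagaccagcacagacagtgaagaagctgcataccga
Nr1d1, chr11:98775328-98775627, minus strand, variant E-box: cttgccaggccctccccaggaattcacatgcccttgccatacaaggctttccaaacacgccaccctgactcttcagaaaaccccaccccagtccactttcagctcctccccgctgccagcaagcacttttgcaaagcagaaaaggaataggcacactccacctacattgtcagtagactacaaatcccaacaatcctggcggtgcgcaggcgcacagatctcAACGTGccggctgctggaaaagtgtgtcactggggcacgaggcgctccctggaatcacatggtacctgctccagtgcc
Per3, chr4:151044616-151044915, minus strand, D-box: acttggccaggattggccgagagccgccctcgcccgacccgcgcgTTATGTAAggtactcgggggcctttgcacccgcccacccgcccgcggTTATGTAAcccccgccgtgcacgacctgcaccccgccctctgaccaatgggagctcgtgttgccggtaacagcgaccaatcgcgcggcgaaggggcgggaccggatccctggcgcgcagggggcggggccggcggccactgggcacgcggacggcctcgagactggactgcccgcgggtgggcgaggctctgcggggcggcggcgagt
Tef, chr15:81802423-81802722, plus strand, E-box: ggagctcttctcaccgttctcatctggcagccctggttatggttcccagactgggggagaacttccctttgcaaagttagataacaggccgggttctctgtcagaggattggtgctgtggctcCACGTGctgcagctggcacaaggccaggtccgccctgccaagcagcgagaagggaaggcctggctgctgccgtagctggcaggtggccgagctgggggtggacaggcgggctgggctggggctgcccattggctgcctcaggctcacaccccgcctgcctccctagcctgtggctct

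The Ciart window held 3 copies of CACGTG, which began 116, 58 and 44 bases before the start. Of 32851 mouse windows of this length, 7.15% held at least 1 E-box and 0.0883% at least 3. Each of 2 Tef windows held 1 E-box, beginning 127 bases before the start in the window shown and 138 in the other, at chr15:81811164-81811463. The Per3 window held 2 copies of TTATGTAA, beginning 205 and 158 bases before the start, and 0.0244% of windows had at least 2 D-boxes against 1.06% with at least 1. In the Nr1d1 window, AACGTG, the reverse complement of CACGTT, began 28 bases before the start, and 4.68% of windows held that variant. The Arntl window shown held TAGGTCA at bases 31 to 37 after the start, and 6.45% of windows held a RORE core as searched. A second Arntl window, which overlaps the one shown, held none of the letters searched. Other forms of these motifs were not searched, so a window without a match may still hold one. Of the 13 windows of members, 3 held an E-box, of the genes Ciart and Tef, and 1 each held the variant, a D-box and a RORE core. The windows of Clock, Npas2, Dbp and Nr1d2 held none of these letters. These matches describe the letters of the windows only.

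These clock genes, Clock aside, differed widely between mice of the same genotype. The within-group standard deviation (SD, over 10 groups with 40 degrees of freedom) was 1.21 log2 units for Dbp, the 12th largest of the 19494 genes, and 1.13 for Ciart, the 18th largest. It was 0.74 for Per3, 0.70 for Arntl, 0.69 for Per2, 0.67 for Npas2, 0.53 for Nr1d2, 0.49 for Nr1d1 and 0.44 for Tef. Clock stood apart with an SD of 0.14, below the median of 0.19 over all genes. For 9 of the 10 members the SD was above 0.34, the 95th percentile of all genes. The members were chosen with earlier results of these data known, so this rank is a description. Of 22 further clock genes described below, Bhlhe41 (0.69), Hlf (0.50), Nfil3 (0.47), Cry2 (0.40) and Per1 (0.35) exceeded that percentile. The rest did not, among them Cry1 (0.29) and Rora (0.23). Differences within groups made up a median of 65.4% of the variance of the members and of 72.1% over all genes.

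**Figure D1:**
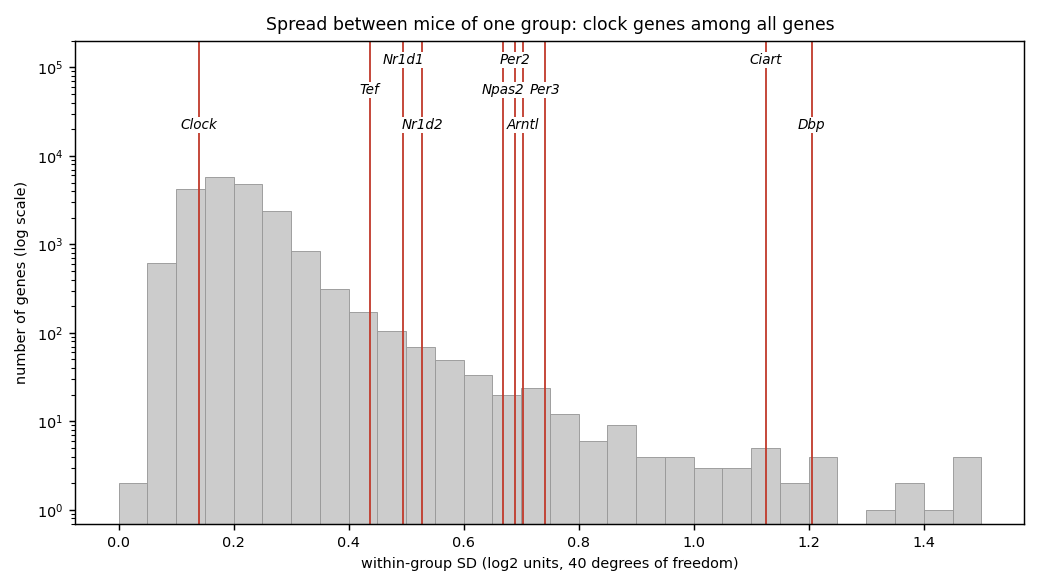
Histogram of the within-group SD of log2 signal (x axis, log2 units) over all 19494 genes, with the number of genes on a log y axis and a red line for each clock gene. Dbp at 1.21 and Ciart at 1.13 lie in the far right tail, and Clock at 0.14 lies left of the median of all genes.

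Taken over all 50 mice, Dbp spanned 7.48 to 11.84 log2 units, a 20.6-fold range, and Ciart 4.65 to 8.75, a 17.2-fold range. Per3 spanned 8.45-fold, Npas2 6.77-fold, Arntl 6.57-fold, Nr1d1 5.63-fold, Nr1d2 5.51-fold, Per2 5.50-fold and Tef 4.03-fold, whereas Clock spanned 1.58-fold. The lowest Arntl value, 6.85, was in Casp8 fl/fl 98, and the highest, 9.56, in CASP8 IEC-KO Mlkl -/- 7.

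Arntl, the obligate partner of the activating pair, shows how the mice of a group split. In Casp8 fl/fl mice its log2 signal was 7.40, 9.07, 6.85, 8.98 and 7.65 in arrays 86, 91, 98, 105 and 119. In Fadd fl/fl mice it was 7.73, 7.30, 7.24, 7.44 and 9.19 in arrays 26 to 30. Among the controls, Casp8 fl/fl 91 and 105 and Fadd fl/fl 30 were thus more than 1 log2 unit above the rest of their group, although no death gene was deleted in them. CASP8 IEC-KO Mlkl -/- mice had 8.95, 9.56, 9.51, 8.99 and 9.04 in arrays 6 to 10. FADD IEC-KO Zbp1 -/- mice had 7.35, 9.29, 8.71, 9.03 and 8.80 in arrays 1 to 5. Every CASP8 IEC-KO Mlkl -/- mouse was high, and the Zbp1 -/- group held 4 high mice and a low 1.

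In FADD IEC-KO mice Arntl was 7.43, 8.18, 8.63, 8.05 and 7.91 in arrays 21 to 25 and 8.22, 9.11, 8.98, 7.67 and 6.91 in arrays 89, 95, 117, 120 and 124. In CASP8 IEC-KO mice it was 7.01, 8.73, 7.82, 7.56 and 8.97 in arrays 16 to 20 and 8.41, 7.61, 7.79, 7.76 and 7.35 in arrays 87, 92, 100, 104 and 108. These single knockouts covered the span between the low and the high mice of the controls. FADD IEC-KO Mlkl -/- mice had 7.48, 8.45, 7.69, 7.33 and 7.56 in arrays 11 to 15, and FADD IEC-KO RIPK3 IEC-KO mice 7.73, 8.82, 7.06, 7.94 and 8.91 in arrays 88, 93, 112, 113 and 123. Each of those groups overlapped both floxed controls.

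Dbp, the most variable member and an output factor of the loop, was high where Arntl was low. In Casp8 fl/fl mice Dbp was 11.83, 9.00, 11.68, 8.45 and 11.65, in the order of arrays given for Arntl, and in Fadd fl/fl mice 11.68, 11.74, 11.67, 11.50 and 9.54. The same 3 control mice that were high in Arntl were those low in Dbp. In CASP8 IEC-KO Mlkl -/- mice Dbp was 9.03, 7.99, 8.02, 9.25 and 8.92, and in FADD IEC-KO Zbp1 -/- mice 11.63, 7.96, 9.34, 9.20 and 9.71. FADD IEC-KO mice had 11.16, 8.06, 8.95, 10.07 and 10.45 in the series 1 to 30. They had 11.03, 9.60, 7.48, 11.47 and 10.72 in the series 86 to 124. In both knockout series the lowest Dbp value, that of arrays 22 and 117, lay below every Fadd fl/fl and Casp8 fl/fl mouse.

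Npas2, the relative of Clock that can take its place, split like Arntl. It was 7.16, 8.40, 6.45, 8.17 and 6.42 in the Casp8 fl/fl mice and 7.02, 7.08, 6.49, 7.10 and 8.43 in the Fadd fl/fl mice. Its lowest value, 6.23, was in CASP8 IEC-KO 92 and its highest, 8.99, in FADD IEC-KO Zbp1 -/- 2. In the CASP8 IEC-KO Mlkl -/- mice it was 8.16, 8.93, 8.91, 8.63 and 8.44, above all Fadd fl/fl mice but 30.

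Per2, a repressor of the activating pair, was nearly level in CASP8 IEC-KO Mlkl -/- mice, at 6.86, 7.01, 6.84, 6.88 and 6.95. In Fadd fl/fl mice it was 8.79, 8.55, 8.40, 7.75 and 6.99, and in FADD IEC-KO Zbp1 -/- mice 8.67, 7.19, 7.22, 7.22 and 7.32. Mouse 1 of the Zbp1 -/- group and mouse 30 of the controls each sat at the level of the other group. Tef, a D-box factor like Dbp, was 6.10, 5.54, 5.91, 5.72 and 5.87 in CASP8 IEC-KO Mlkl -/- mice and 7.34, 7.08, 7.55, 6.80 and 5.91 in Fadd fl/fl mice. Per3 was 7.57, 7.58, 7.32, 7.46 and 7.37 in the first of those groups and 9.04, 9.60, 9.66, 8.79 and 7.88 in the second. In each of these genes mouse 30 was the lowest of the Fadd fl/fl group.

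**Figure D2:**
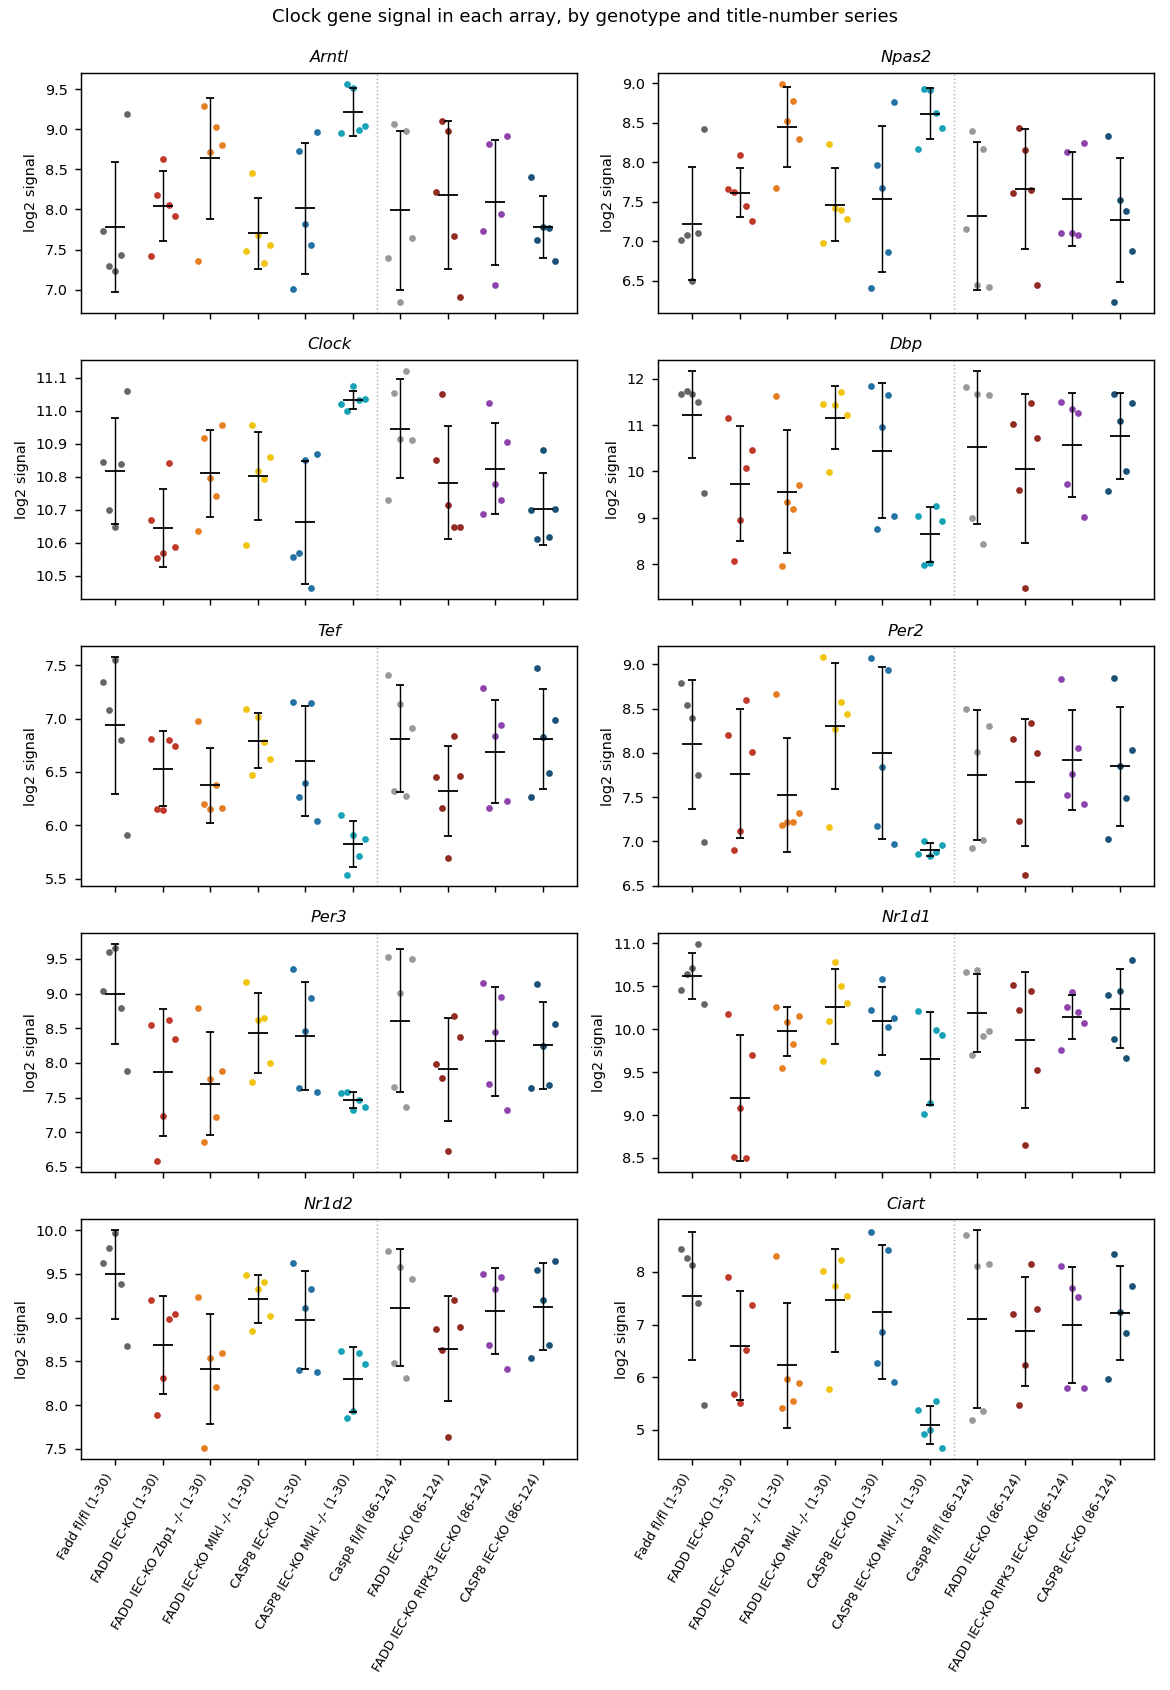
Log2 signal of each clock gene (y axes) in every array (points), by genotype and title-number series (x axes); the horizontal mark and bar are the group mean and SD, n = 5, and the dotted line parts the series 1-30 from 86-124. In the Dbp panel the Casp8 fl/fl mice sit at 8.45, 9.00 and between 11.65 and 11.83, and the CASP8 IEC-KO Mlkl -/- mice all sit at or below 9.25.

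A clock score was taken for each array as the mean of the 3 positive-arm genes minus the mean of the other 7, in log2 units, so that a high score means high Arntl with low Dbp, Per and Ciart. Scores ran without a wide break from the lowest to 0.48 and again from 1.20 to the highest. That gap of 0.72 was the widest between neighbouring scores, and the second widest was 0.23. It left 28 arrays below and 22 above, and 9 of the 10 groups had arrays on both sides. CASP8 IEC-KO Mlkl -/- was the exception, with scores of 1.70, 2.70, 2.67, 1.92 and 2.05 in arrays 6 to 10, all above the gap. Casp8 fl/fl mice had scores of -1.06, 1.90, -1.10, 1.90 and -0.81 in arrays 86, 91, 98, 105 and 119, on both sides of it.

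Mean clock scores were, from the highest, 2.21 ± 0.45 (SD, n = 5) in CASP8 IEC-KO Mlkl -/- and 1.33 ± 1.15 in FADD IEC-KO Zbp1 -/-. FADD IEC-KO followed with 0.71 ± 0.89 in the series 1 to 30 and 0.68 ± 1.23 in the series 86 to 124. The means of the other 6 groups lay between 0.29 ± 1.09 in FADD IEC-KO RIPK3 IEC-KO and -0.38 ± 1.22 in Fadd fl/fl. In this order each pair of neighbours differed by less than the larger SD of the pair. Scores of CASP8 IEC-KO Mlkl -/- and of Fadd fl/fl differed by 2.59 (SE 0.58), and they overlapped because Fadd fl/fl 30 had a score of 1.74. No p-value is given for the score, since its genes were chosen with earlier results known.

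**Figure D3:**
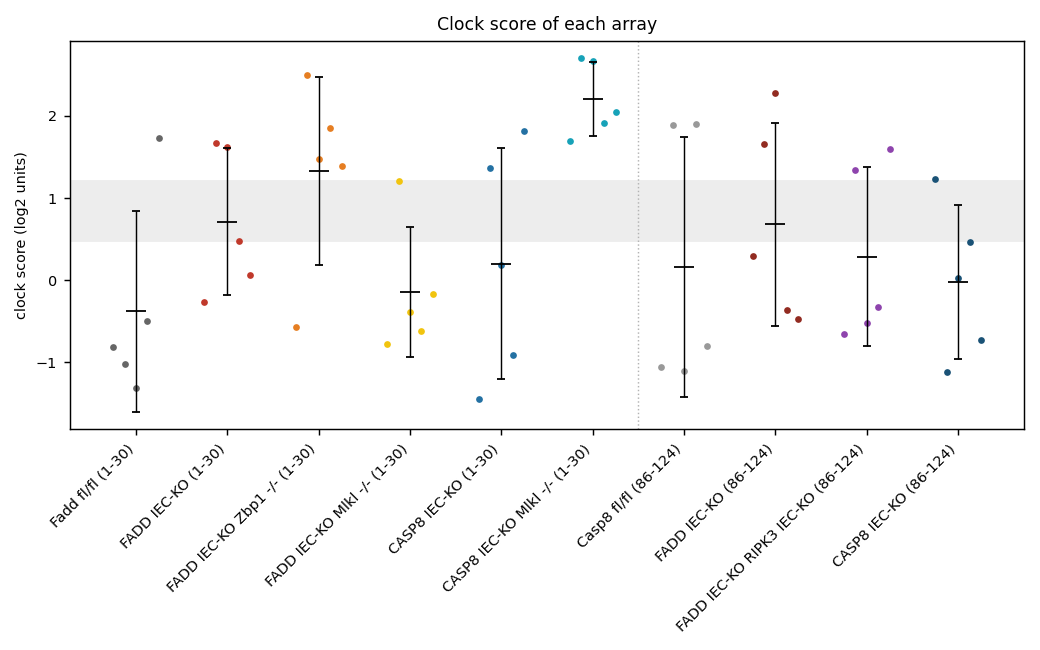
Clock score of every array (points; y axis, log2 units) by genotype and title-number series (x axis), with group mean and SD, n = 5; the grey band is the widest gap between neighbouring scores, from 0.48 to 1.20. All 5 CASP8 IEC-KO Mlkl -/- mice lie above the band and every other group has mice on both sides.

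How far Arntl moved with the other members is given as a description. Permutations were run, but they shuffled mice across the genotype groups, so no conclusion is drawn from them. A value over all arrays mixes mice on both sides of the gap, and a split at the gap limits the range of these genes, because the score that sets it is built from them. After group means were subtracted, the correlation with Arntl over 50 arrays was 0.89 for Npas2, -0.89 for Ciart, -0.87 for Dbp, -0.84 for Nr1d2, 0.62 for Clock and -0.41 for Nr1d1. With no subtraction, Npas2 had r 0.526 in the 28 arrays below the gap and 0.762 in the 22 above, and Ciart -0.481 and -0.581. Dbp had -0.461 and -0.354, Per2 -0.0644 and -0.167, and Nr1d1 -0.283 and -0.0426. The arrays share genotype groups, and 9 of the 22 above the gap came from CASP8 IEC-KO Mlkl -/- and FADD IEC-KO Zbp1 -/-.

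Nr1d1 had the weakest relation to the rest. After group means were subtracted, its correlation over 50 arrays with a score of the other members was -0.40, whereas the sizes for the rest ran from 0.60 for Clock to 0.94 for Dbp. That is a description, since the arrays share genotype groups and fall on either side of the gap. The highest Nr1d1 values, 10.99 in Fadd fl/fl 29 and 10.81 in CASP8 IEC-KO 108, fell on mice with Per2 of 7.75 and 8.03, in the middle of the Per2 range. Mice with the highest Per2, FADD IEC-KO Mlkl -/- 11 at 9.08 and CASP8 IEC-KO 16 at 9.07, had Nr1d1 of 9.63 and 10.22.

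**Figure D4:**
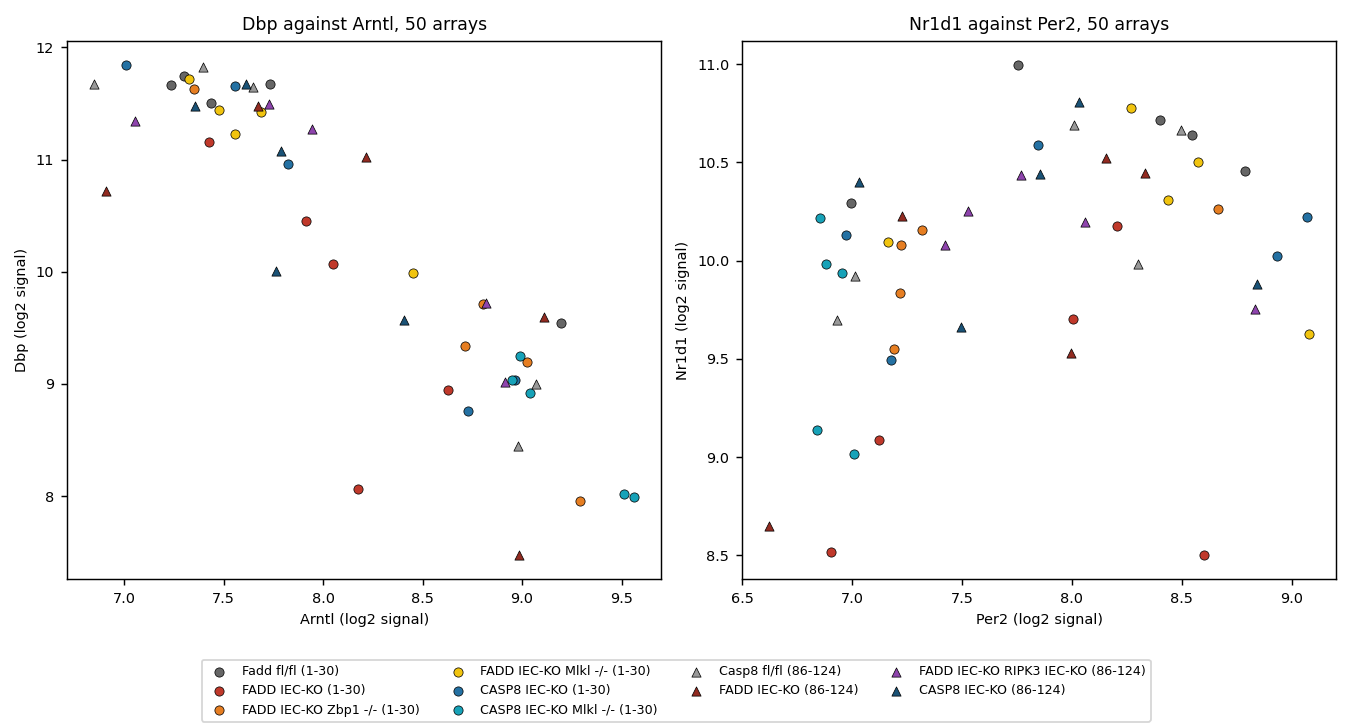
Left, Dbp against Arntl, and right, Nr1d1 against Per2, both as log2 signal, with 1 point per mouse coloured by group, circles for the series 1-30 and triangles for 86-124. Dbp runs from 11.84 at low Arntl to below 8.1 at high Arntl, while Nr1d1 is highest, at 10.99, at a Per2 of 7.75.

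The first genotype question was whether loss of FADD in the epithelium moved the clock genes. In the series 1 to 30, Nr1d1 fell in FADD IEC-KO and was the single member of 10 to pass (limma, adjusted p under 0.05 over all genes), where 18.7% of all genes passed. Nr1d1 (probe set TC1100003688.mm.2) was 10.18, 8.51, 9.09, 8.50 and 9.70 in FADD IEC-KO 21 to 25 and 10.45, 10.64, 10.72, 10.99 and 10.29 in Fadd fl/fl 26 to 30. Every knockout mouse lay below every control, and the lowest were arrays 22 and 24. The means were 9.20 ± 0.74 and 10.62 ± 0.27 (SD, n = 5), a difference of -1.42 log2 (SE 0.30, 2.68-fold lower, limma adjusted p 0.000779). The call held under each alternative fit and without any single array, with adjusted p of at most 0.0454.

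The other 9 members did not pass in that comparison. Per3, a period gene, had means of 7.87 ± 0.91 and 8.99 ± 0.72 (difference -1.13, SE 0.44, limma adjusted p 0.0683). Nr1d2 had a difference of -0.81 (SE 0.32, adjusted p 0.0671) and Dbp of -1.49 (SE 0.72, adjusted p 0.149) in the same limma fit. These and Nr1d1 made 4 members at an unadjusted p under 0.05, against 30.9% of all genes. Most members move together between mice, so counts of members here and below are not separate evidence. All 7 members outside the positive arm had lower means in the knockout, with a median difference of -0.95, against -0.016 over all genes. All 7 also had lower means in Casp8 fl/fl, with no deletion, than in Fadd fl/fl, with a median of -0.38. Without Fadd fl/fl 30, the control mouse with high Arntl, or without FADD IEC-KO 21, Per3 and Nr1d2 passed beside Nr1d1, and without FADD IEC-KO 24 Per3 did. The positive arm had differences of 0.26 for Arntl (SE 0.42), 0.39 for Npas2 (SE 0.40) and -0.17 for Clock (SE 0.09).

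Markers of other cell types moved with this comparison. All 10 smooth muscle markers fell, with list means per mouse of 9.24 to 10.68 in FADD IEC-KO and 10.76 to 11.00 in Fadd fl/fl. All 6 neutrophil markers rose (4.64 to 9.50 against 4.20 to 4.45), as did all 10 measured interferon-gamma response genes (6.88 to 9.56 against 6.20 to 6.57). All 6 measured macrophage markers rose, as did 3 of 4 T cell, 2 of 4 B and plasma cell and 2 of 8 epithelium markers. Of enteric neuron and glia markers 4 of 6 fell, of fibroblast markers 3 of 6, of glucocorticoid-induced genes 4 of 10 and of endothelium markers none. The part of these lists in the Nr1d1 result was not tested. After group means were subtracted, Nr1d1 had a correlation over the 50 arrays of -0.61 with the neutrophil list mean, 0.52 with that of smooth muscle and -0.52 with that of the interferon-gamma response genes, as a description. Without FADD IEC-KO 22 and 23, which had the highest neutrophil means, the Nr1d1 difference was -1.16 (limma adjusted p 0.0454), a setting chosen after the data were seen. The mice that remained, 21, 24 and 25, still had interferon-gamma list means of 6.88, 8.58 and 8.47, above all Fadd fl/fl mice. FADD IEC-KO 24 had the lowest Nr1d1 of the 50 arrays, at 8.50. The neutrophil list means were 4.64, 9.50, 7.51, 5.23 and 5.36 in FADD IEC-KO 21 to 25.

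In the series 86 to 124, none of the 10 members passed between FADD IEC-KO and Casp8 fl/fl in limma, none was at an unadjusted p under 0.05, and 11% of all genes passed. Nr1d1 was 10.52, 10.23, 8.65, 10.45 and 9.53 in FADD IEC-KO 89, 95, 117, 120 and 124 and 10.66, 9.70, 10.69, 9.92 and 9.98 in the Casp8 fl/fl arrays. Arrays 117 and 124 lay below the controls and the other knockout mice lay among them. Arrays 117 and 124 had neutrophil list means of 8.13 and 6.52 and the other 3 knockouts of 4.37 to 4.51. Interferon-gamma list means were 7.91, 7.31, 9.08, 7.66 and 8.61 in FADD IEC-KO 89, 95, 117, 120 and 124. Those of Casp8 fl/fl mice were 6.3 to 6.6. The part of these lists in Nr1d1 was not tested. The Nr1d1 difference was -0.32 (SE 0.30, limma adjusted p 0.537). Directly tested, the Nr1d1 effect differed between the series by 1.11 and did not pass (limma adjusted p 0.293), and no member passed (0.123% of genes did, and 1 member was at an unadjusted p under 0.05). That interaction also crosses control lines, which cannot be told apart from the series.

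Co-deletions in FADD IEC-KO mice were read next. With Mlkl also lost, Nr1d1 rose against FADD IEC-KO, the single member of 10 to pass in a comparison where 5.85% of genes passed. Its values were 9.63, 10.09, 10.78, 10.50 and 10.31 in FADD IEC-KO Mlkl -/- 11 to 15, which overlapped the 8.50 to 10.18 of FADD IEC-KO. The means were 10.26 ± 0.44 and 9.20 ± 0.74, a difference of 1.07 (SE 0.30, 2.09-fold, limma adjusted p 0.0228). It was the 1 member at an unadjusted p under 0.05 (20.7% of all genes were). This call was lost without any 1 of the arrays 22, 23, 24, 13 and 14 and with only the compared arrays fitted (limma adjusted p 0.115). It was also lost with FADD IEC-KO pooled over both series (adjusted p 0.0532) and without arrays 22 and 23 together (0.80, limma adjusted p 0.375).

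The same marker lists moved here in reverse. All 10 smooth muscle markers rose, 5 of 6 neutrophil markers fell, and all 10 measured interferon-gamma response genes fell between FADD IEC-KO Mlkl -/- and FADD IEC-KO. The neutrophil list means of FADD IEC-KO Mlkl -/- mice were 4.13 to 4.57. Their part in the Nr1d1 result was not tested. Dbp was 11.45, 9.99, 11.42, 11.72 and 11.23 in FADD IEC-KO Mlkl -/- 11 to 15, and its difference from FADD IEC-KO was 1.42 (SE 0.72, limma adjusted p 0.253). Against Fadd fl/fl, no member of the FADD IEC-KO Mlkl -/- group passed or was at an unadjusted p under 0.05 in limma (0.159% of genes passed), and Nr1d1 differed by -0.36.

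Loss of Zbp1 in FADD IEC-KO mice left no member past the limma threshold against FADD IEC-KO, where 10.8% of genes passed. At an unadjusted p under 0.05 stood 2 members, Nr1d1 (0.78, SE 0.30, adjusted p 0.0801) and Npas2 (0.83, SE 0.40, adjusted p 0.182). Nr1d1 was 10.26, 9.55, 10.08, 9.83 and 10.16 in FADD IEC-KO Zbp1 -/- 1 to 5. It passed without FADD IEC-KO 21. FADD IEC-KO 21 had the highest Nr1d1 of its group and a neutrophil list mean of 4.64, the lowest there. FADD IEC-KO 24, with the lowest Nr1d1 of the group, had a neutrophil list mean of 5.23.

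Against Fadd fl/fl, FADD IEC-KO Zbp1 -/- had 7 members at an unadjusted p under 0.05 (12.7% of all genes) and none past the limma threshold (1.07% of genes). Nr1d2, a repressor of Arntl, was 9.23, 7.51, 8.54, 8.21 and 8.59 in FADD IEC-KO Zbp1 -/- 1 to 5 and 9.63, 9.80, 9.97, 9.39 and 8.68 in Fadd fl/fl 26 to 30. Mouse 1 of the first group and mouse 30 of the second made the groups overlap. The difference was -1.08 (SE 0.32, limma adjusted p 0.0785). Nr1d1 was the 1 member whose groups did not overlap, as 3.9% of all genes did not. It was lower in every Zbp1 -/- mouse than in every control (-0.64, SE 0.30, limma adjusted p 0.346). The groups nearly touched, with a highest Zbp1 -/- value of 10.264 and a lowest control value of 10.292. Without Fadd fl/fl 30, Npas2 and Nr1d2 passed, and without FADD IEC-KO Zbp1 -/- 1, Nr1d2 did. With array quality weights Npas2, Per3 and Nr1d2 passed. Counts over all genes in this comparison were 68 to 767 under the alternatives, against 209 in the main fit.

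Epithelial loss of RIPK3 beside FADD left no member past the limma threshold or at an unadjusted p under 0.05, either against FADD IEC-KO (0.754% of genes passed) or against Casp8 fl/fl (0.0769%). Nr1d1 was 9.75, 10.25, 10.44, 10.20 and 10.08 in arrays 88, 93, 112, 113 and 123 of FADD IEC-KO RIPK3 IEC-KO. Those lay within the range of the Casp8 fl/fl mice. The median size of the members' differences from Casp8 fl/fl was 0.12, against 0.10 over all genes.

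Loss of caspase-8 alone left no member past the limma threshold in either series. Against Fadd fl/fl in the series 1 to 30, no member was at an unadjusted p under 0.05, and 0.123% of genes passed. All 7 members outside the positive arm had lower means there, with a median difference of -0.53 against -0.013 over all genes, as they had in Casp8 fl/fl against Fadd fl/fl. Against Casp8 fl/fl in the series 86 to 124, Clock alone had an unadjusted p under 0.05 (-0.24, SE 0.09, limma adjusted p 0.129), and 2.46% of genes passed. The median size of the members' differences there was 0.11, near the 0.12 of all genes. The interaction of the CASP8 IEC-KO effect with the series had no member past the limma threshold or at an unadjusted p under 0.05 (0.00513% of genes passed).

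Set against FADD IEC-KO, CASP8 IEC-KO mice of the series 1 to 30 had Nr1d1 of 10.22, 9.49, 10.59, 10.02 and 10.13 in arrays 16 to 20. The difference was 0.90 (SE 0.30, limma adjusted p 0.0561), no member passed, and 6.75% of genes did. Marker lists also differed between CASP8 IEC-KO and FADD IEC-KO there. Their group means were 4.56 and 6.45 for neutrophils, 10.66 and 9.86 for smooth muscle, and 6.65 and 8.46 for interferon-gamma response genes. The part of these lists in Nr1d1 was not tested. Nr1d1 was the 1 member at an unadjusted p under 0.05, and it passed without CASP8 IEC-KO 17, FADD IEC-KO 21 or FADD IEC-KO 25, and with the dimmest 40% of genes removed. In the series 86 to 124 no member passed or was at an unadjusted p under 0.05 in limma (0.164% of genes passed), and Nr1d1 differed by 0.36. The 6 comparisons described that use FADD IEC-KO of the series 1 to 30, those between the series included, share its 5 mice, so they are not separate evidence on Nr1d1.

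The widest clock differences were those of CASP8 IEC-KO Mlkl -/- mice. Against CASP8 IEC-KO, Clock rose and was the 1 member of 10 to pass, with 0.421% of all genes passing. Clock (probe set TC0500002628.mm.2) was 11.02, 11.00, 11.07, 11.03 and 11.03 in CASP8 IEC-KO Mlkl -/- 6 to 10 and 10.56, 10.57, 10.85, 10.46 and 10.87 in CASP8 IEC-KO 16 to 20. The groups did not overlap, and the first was the tightest of the 10 groups for Clock. The means were 11.03 ± 0.03 and 10.66 ± 0.19, a difference of 0.37 (SE 0.09, 1.29-fold, limma adjusted p 0.0456). The call was lost in 8 of the 10 fits without a single array (limma adjusted p up to 0.164), with only the compared arrays fitted, with quantile normalization, and with the Arntl signal of each mouse as a covariate, a setting added after the data were seen. Fibroblast markers moved beside it: 3 of 6 were at an unadjusted p under 0.05 and none passed in limma. Their list means did not overlap, at 9.61 to 9.94 in CASP8 IEC-KO Mlkl -/- and 9.26 to 9.55 in CASP8 IEC-KO, and their part in the Clock result was not tested.

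In that comparison 9 of the 10 members were at an unadjusted p under 0.05, where 13.1% of all genes were, and the one outside was Nr1d1 (-0.43, SE 0.30). Ciart, a repressor of the activating pair, was 5.37, 4.92, 4.98, 5.54 and 4.65 in the Mlkl -/- mice and 8.75, 6.27, 6.85, 8.41 and 5.90 in CASP8 IEC-KO. Its groups did not overlap, although CASP8 IEC-KO 20 came within 0.5 of the highest Mlkl -/- mouse. The difference was -2.15 (SE 0.67, 4.43-fold, limma adjusted p 0.132). Clock, Per3 and Ciart were the 3 members whose groups did not overlap, as 4.02% of all genes did not. For Per3 the groups nearly touched, with a highest Mlkl -/- value of 7.581 and a lowest CASP8 IEC-KO value of 7.584. The difference of Dbp was -1.81 (SE 0.72, limma adjusted p 0.255), of Per2 -1.09 (adjusted p 0.225) and of Arntl 1.19 (SE 0.42, adjusted p 0.192).

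Against Fadd fl/fl, all 10 members of CASP8 IEC-KO Mlkl -/- mice were at an unadjusted p under 0.05 and none passed in limma, with 8.19% and 0.0462% of all genes, or 9 genes, on those counts. Because most members move together, such counts, like those of groups that do not overlap, are not separate evidence. The 3 positive-arm genes had higher means and the other 7 lower means, with medians of 1.39 and -1.20. Dbp had the largest difference, -2.58 (SE 0.72, 5.99-fold, limma adjusted p 0.188), between means of 8.64 ± 0.60 and 11.23 ± 0.94. Its highest value in the Mlkl -/- mice, 9.25, was below the lowest of the controls, 9.54. Ciart differed by -2.45 (5.46-fold, adjusted p 0.178), Per3 by -1.53 (adjusted p 0.198) and Arntl by 1.43 (2.70-fold, adjusted p 0.213) in the same limma fit. Tef had the smallest adjusted p, 0.113 (-1.11, SE 0.26, limma).

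Groups did not overlap for Dbp, Per3, Nr1d1 and Nr1d2, 4 of 10 members, against 2.82% of all genes. For Nr1d2 they nearly touched, with a highest Mlkl -/- value of 8.621 and a lowest Fadd fl/fl value of 8.678. For Nr1d1 these values were 10.215 and 10.292. With array quality weights, 8 members passed: Arntl and Npas2 higher, and Dbp, Tef, Per3, Nr1d1, Nr1d2 and Ciart lower. Those weights were 1.19 to 1.64 in the CASP8 IEC-KO Mlkl -/- arrays and 0.99 to 1.41 in the Fadd fl/fl arrays. Counts over all genes also moved in this comparison, from 2 to 189 under the alternatives against 9 in the main fit. With only the 10 compared arrays fitted, Dbp and Per3 passed, and without Fadd fl/fl 30 Tef did. In the cell type lists and the interferon-gamma list no gene passed in limma between CASP8 IEC-KO Mlkl -/- and CASP8 IEC-KO or Fadd fl/fl. Against Fadd fl/fl no smooth muscle, neutrophil, macrophage, fibroblast or interferon-gamma gene was at an unadjusted p under 0.05 either. Neutrophil list means were 4.21 to 4.38 in CASP8 IEC-KO Mlkl -/- and 4.24 to 5.40 in CASP8 IEC-KO. The positions of the mice within the day cannot be told apart from genotype here, since collection times are not given.

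**Figure D5:**
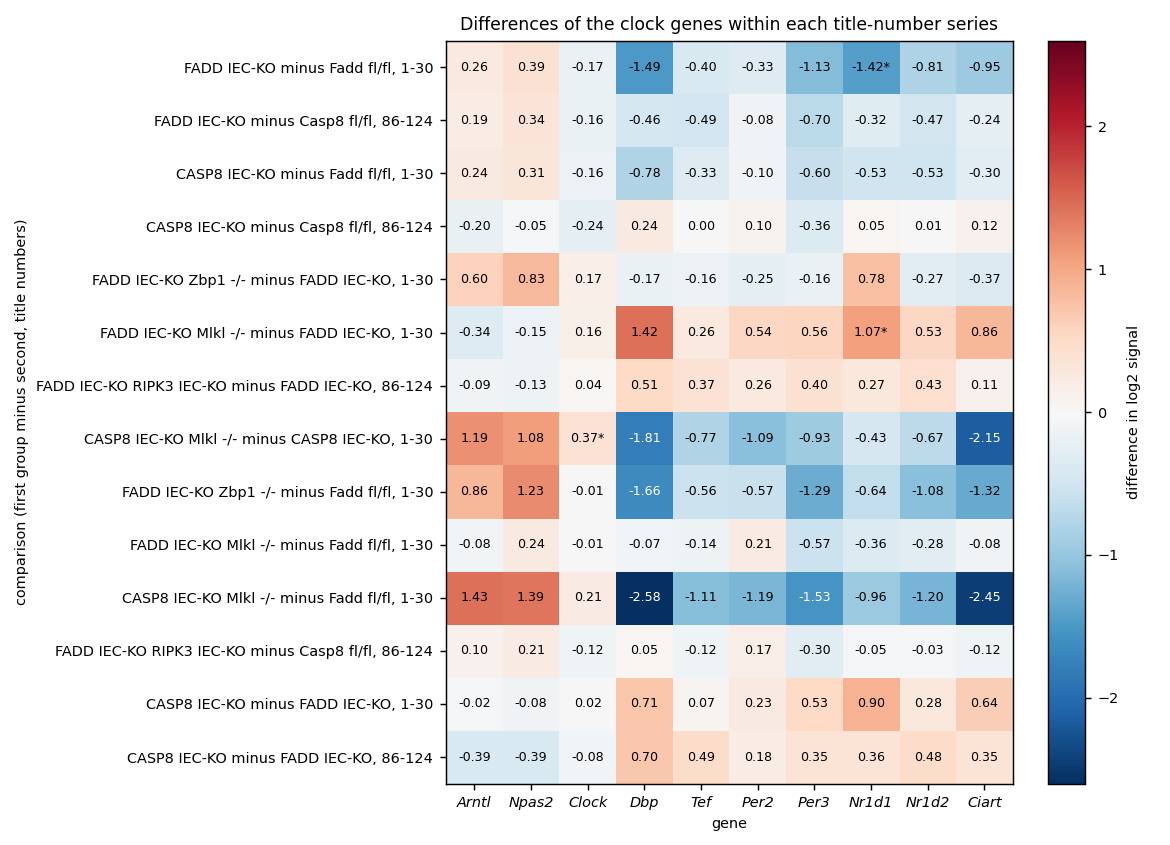
Difference in log2 signal (colour and printed value) of each clock gene (columns) in the 14 comparisons within a title-number series (rows; first group minus second, 5 mice each); an asterisk marks an adjusted p under 0.05 over all genes in limma. The asterisks are Nr1d1 at -1.42 and 1.07 and Clock at 0.37, while the deepest colours, Dbp at -2.58 and Ciart at -2.45 in CASP8 IEC-KO Mlkl -/- against Fadd fl/fl, carry none.

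Between the series, no member passed in limma in FADD IEC-KO (0.39% of genes passed), CASP8 IEC-KO (0.0154%) or the floxed controls (0.0359%). Nr1d1 in FADD IEC-KO, 0.68 higher in the series 86 to 124, was the 1 member at an unadjusted p under 0.05 in the first of these, and the other 2 had none.

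Of 25 further clock genes written down, 22 were measured. In FADD IEC-KO against Fadd fl/fl, 3 rose and 3 fell in limma, where 18.7% of all genes passed. Nfil3, a repressor that binds the D-box, rose by 1.08 (SE 0.28, limma adjusted p 0.00540), and its group values overlapped. Sirt1, a deacetylase, fell by 0.46 (limma adjusted p 0.00351), and Btrc, part of a ubiquitin ligase for PER proteins, fell by 0.46 (adjusted p 0.00515) with no overlap. Wdr5, a chromatin protein, rose by 0.30 (limma adjusted p 0.0169). Rora, the activator that competes with the NR1D receptors at ROREs, fell by 0.42 (limma adjusted p 0.0338, no overlap), and Timeless rose by 0.46. In FADD IEC-KO Mlkl -/- against FADD IEC-KO, Rora rose by 0.47 (limma adjusted p 0.0394) and Nfil3 fell by 0.90 (adjusted p 0.0459), where 5.85% of all genes passed. None of the 22 passed in CASP8 IEC-KO Mlkl -/- against CASP8 IEC-KO, where 5, and 13.1% of all genes, were at an unadjusted p under 0.05 in limma.

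Of 15 measured genes known as outputs of the clock, 3 rose and 4 fell in FADD IEC-KO against Fadd fl/fl, where 18.7% of all genes passed. Noct, a phosphatase of NADP(H), fell by 0.97 (limma adjusted p 0.000251), and Abcb1a, a drug efflux pump of the gut, fell by 1.17 (adjusted p 0.000794). Slc15a1, the peptide transporter, fell by 1.03 (limma adjusted p 0.00106), and Nampt, the rate-limiting enzyme of NAD salvage, rose by 0.83 (adjusted p 0.000340). In FADD IEC-KO Mlkl -/- against FADD IEC-KO, Abcb1a (1.00), Slc15a1 (0.86) and Noct (0.65) rose and Nampt (-0.58) and Pnp (-0.39) fell, with limma adjusted p of 0.0110 to 0.0465, where 5.85% of all genes passed. In the series 86 to 124, where no member and 11% of all genes passed, Abcb1a (-1.05, limma adjusted p 0.00388) and Noct (-0.65, adjusted p 0.0123) fell against Casp8 fl/fl. Alas1, the first enzyme of heme synthesis, rose by 0.75 there (limma adjusted p 0.00163) and Nampt by 0.46 (adjusted p 0.0478). None of the 15 passed in CASP8 IEC-KO Mlkl -/- against CASP8 IEC-KO, where 4, and 13.1% of all genes, were at an unadjusted p under 0.05 in limma. The same markers of muscle, neutrophils and interferon-gamma response move with the FADD IEC-KO comparison, and their part in these genes was not tested.

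Genes outside the 10 were ranked by their correlation with the clock score over 50 arrays after group means were subtracted, and 19 of 18475 reached 0.8 either way. Values below and above the gap, here and in the next paragraph, were taken with no subtraction, so they are another measure. Cldn8, a claudin of tight junctions, led the positive side (0.93, with 0.80 in the 28 arrays below the gap and 0.59 in the 22 above). Its signal ran from 9.03 to 11.05 over the mice. Spon2, a secreted matrix protein, followed (0.88, with 0.61 and 0.57). E2f2, a transcription factor of the cell cycle, had 0.87, but 0.88 below the gap and -0.18 above it. Tmem139, Cdcp1, Leo1, Denn2b and H3c13 had 0.82 to 0.75.

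On the negative side stood Prkaa2, a catalytic subunit of the energy sensor AMPK (-0.89, with -0.79 below and -0.62 above), and the clock repressor Bhlhe41 (-0.88, with -0.65 and -0.52). Slc2a5, the fructose transporter, had -0.87 (-0.78 and -0.30), and Usp2, a deubiquitinase listed among the outputs, -0.85 (-0.62 and -0.28). Hlf, a relative of Dbp and Tef, had -0.84 (-0.66 and -0.26), and Cipc, which represses the CLOCK pair, -0.84 (-0.76 and -0.44). Smim24 had -0.85 and Ankrd12 -0.83. Of the 22 further clock genes 6 reached 0.5 either way: Per1 (-0.82), Cry2 (-0.75), Nfil3 (0.63), Bhlhe40 (-0.54), Hlf and Bhlhe41. Cry1 had -0.08 over all arrays after subtraction, and -0.16 below the gap and 0.55 above it without. These values describe arrays that share groups and carry no test.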

How the data were processed

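Colon RNA of 50 mice (100 ng per mouse, per the labels) was read on 1 Affymetrix array each. Per the submitters' processing notes, Expression Console and Transcriptome Analysis Console were used, with no version or normalization stated. The values the authors deposited are on a log2 scale, 1 per probe set and array. Of 22142 probe sets, 19527 carried 1 symbol and 2615 none, none carried several, and 33 extra ones of a symbol (not the highest mean) were dropped, which left 19494 genes.

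In R 4.3.3, limma 3.58.1 fitted a mean for each of the 10 groups, which left 40 residual degrees of freedom. The Benjamini-Hochberg adjustment ran over all genes, and an adjusted p under 0.05 passed. Mice are the replicates, and their number limits the precision. Correlations with Arntl were permuted (100000 resamples, SciPy 1.17.1) but are reported as descriptions. SEs of score differences come from the SDs of both groups. The procedure was tested on simulated data.

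The members and all lists were chosen with earlier results of these data known. Genes named were the 10 members, the targeted genes, up to 4 genes with the smallest adjusted p per list in a comparison described (Timeless and Rora, in FADD IEC-KO against Fadd fl/fl, and Pnp complete counts and were named after their values were seen), and the 8 highest and 8 lowest by correlation with the clock score; Per1, Cry1, Cry2 and Bhlhe40 were named from the clock list after their values were seen. Alternatives were a fit of the compared arrays alone, pooled series with a series term, quantile normalization, a filter on the dimmest 40%, trended robust moderation, mean probe sets, array quality weights, a 0.5 log2 minimum, other forms of the score and leaving out each array. Promoter sequences were from RefSeq, GRCm38.p6.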

Additional observations from a re-analysis of the deposited data

Results flagged for a closer look

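A single mouse lay far from the other 4 of its group in 8 of 110 combinations of a member or the clock score with a group. The rule compared the gap to the nearest mouse with the range of the group, and chance alone marks about 1 in 20 groups. The 8 cases fell on 3 mice. Fadd fl/fl 30 had Arntl of 9.19 (the others 7.24 to 7.73), Dbp of 9.54 (11.50 to 11.74) and a clock score of 1.74 (-1.31 to -0.49). FADD IEC-KO Mlkl -/- 12 had Dbp of 9.99 (11.23 to 11.72) and Ciart of 5.78 (7.54 to 8.23). FADD IEC-KO Zbp1 -/- 1 had Tef of 6.98 (6.15 to 6.38), Per2 of 8.67 (7.19 to 7.32) and Ciart of 8.31 (5.42 to 5.95).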

How the results depend on the processing

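Nr1d1 in FADD IEC-KO against Fadd fl/fl passed under all 10 other settings and without each array (differences of -1.67 to -1.16). The other calls changed. With only the compared arrays fitted, 0 members passed in FADD IEC-KO Mlkl -/- against FADD IEC-KO, 0 in CASP8 IEC-KO Mlkl -/- against CASP8 IEC-KO and 2 in CASP8 IEC-KO Mlkl -/- against Fadd fl/fl. With pooled series and a series term (fitted for the 14 comparisons within a series), 2 passed in FADD IEC-KO against Fadd fl/fl, 0 in FADD IEC-KO Mlkl -/- against FADD IEC-KO and 2 in CASP8 IEC-KO Mlkl -/- against CASP8 IEC-KO. In the last, 0 passed with quantile normalization, 0 with a 0.5 log2 minimum, 2 with array quality weights and 0 with the Arntl covariate. Those weights gave 3 in FADD IEC-KO Zbp1 -/- and 8 in CASP8 IEC-KO Mlkl -/- against Fadd fl/fl. Counts over all genes moved as well and are given in the last paragraph. Without the dimmest 40% of genes, against Fadd fl/fl 3 passed in FADD IEC-KO and 1 in the Zbp1 -/- group, and 1 in CASP8 IEC-KO against FADD IEC-KO. The Arntl covariate, the removal of FADD IEC-KO 22 and 23 together and the split at the gap were chosen after seeing the data, and the covariate is a member itself, so its counts support nothing. It gave 4 in FADD IEC-KO against Fadd fl/fl, 1 in FADD IEC-KO Zbp1 -/- against FADD IEC-KO and 1 in CASP8 IEC-KO against FADD IEC-KO, and the removal gave 0 in FADD IEC-KO Mlkl -/- against FADD IEC-KO. Without each array in turn, counts were 1 to 3 in FADD IEC-KO, 0 to 2 in its Zbp1 -/- group and 0 to 1 in CASP8 IEC-KO Mlkl -/- against Fadd fl/fl. They were 0 to 1 for FADD IEC-KO Mlkl -/-, for FADD IEC-KO Zbp1 -/- and for CASP8 IEC-KO against FADD IEC-KO, and 0 to 1 for CASP8 IEC-KO Mlkl -/- against CASP8 IEC-KO. The cause of these shifts was not tested. Counts in the other comparisons stayed at 0 under every setting.

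The relations of Arntl to the members carry no test here, since a value over all 50 arrays mixes both sides of the gap and the split is made on a score that holds these genes. In permutations run all the same, each passed over 50 arrays. The permutations shuffled mice across genotype groups, so passing or not passing, here and below, decides nothing. Nr1d1 did not pass in the series 86 to 124 alone (r -0.363). Below the gap Clock (0.179), Tef (-0.264), Per2 (-0.0644), Per3 (-0.339), Nr1d1 (-0.283) and Nr1d2 (-0.421) did not pass. Above it Dbp (-0.354), Per2 (-0.167), Nr1d1 (-0.0426) and Nr1d2 (-0.328) did not, and Per3 turned to 0.0948. The clock score differences moved by less than 1 SD of the mice in each alternative.

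Over all genes, 3650 passed in FADD IEC-KO against Fadd fl/fl and 682 to 4257 under the alternatives, and 1140 and 8 to 2156 in FADD IEC-KO Mlkl -/- against FADD IEC-KO. In CASP8 IEC-KO Mlkl -/-, 82 passed against CASP8 IEC-KO (18 to 486) and 9 against Fadd fl/fl (2 to 189). The range of such counts was 759 to 3444 around 2154 in FADD IEC-KO and 1 to 1070 around 479 in CASP8 IEC-KO against Casp8 fl/fl, and 10 to 137 around 24 in CASP8 IEC-KO against Fadd fl/fl. It was 121 to 3001 around 2096 for FADD IEC-KO Zbp1 -/- against FADD IEC-KO and 68 to 767 around 209 against Fadd fl/fl, and 22 to 651 around 147 for FADD IEC-KO RIPK3 IEC-KO against FADD IEC-KO. It was 6 to 2416 around 1315 for CASP8 IEC-KO against FADD IEC-KO in the series 1 to 30. The other comparisons, with 1 to 76 genes, each moved by over 1.5 times in at least 1 alternative. No paired analysis was possible because the groups share no title number.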
